A study of Mus musculus with 8 samples.

Results

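The regions described here are the H3K4me3 peaks of mouse lung tumor cells that lie far from any annotated gene start. They are the 317 peaks, of 35486 listed peaks (0.893%), that the authors annotated as distal intergenic and placed more than 50 kb from the nearest transcription start site, upstream or downstream. H3K4me3 was measured by CUT&Tag, in which DNA is cut free wherever an antibody has bound the histone mark, in FACS-sorted CD45-CD31-EpCAM+ cells from lung tumors. The 2 KL libraries (replicates 1 and 2) came from mice of an autochthonous lung tumor model that carries Lkb1fl/fl, in which Cre starts the tumors and deletes Lkb1. The 2 KLG4m/m libraries (replicates 3 and 4) came from mice of the same model, also Lkb1fl/fl, that carried Gpx4m/m as well, and GPX4 is the enzyme that reduces lipid hydroperoxides and thereby restrains ferroptosis. Both groups received intranasal Ad-Cre and then tamoxifen, and the cells were taken 10 weeks after Ad-Cre. In the Gpx4m/m allele, Cre releases a CAG-driven DreERT2 and tamoxifen then lets it cut out Gpx4, so the deletion depends on a cell having taken up the adenovirus and on both recombinases having acted. The KL mice carry no Gpx4m allele. The cells numbered 1000000 from each mouse. The sources differ on the number of mice, which is 2 per group in a figure legend and fewer in total than the libraries of this mark in the methods, so the p-values below measure the spread between 4 libraries. The comparison asks where the mark differs between tumor cells with and without the Gpx4 deletion.

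H3K4me3 is written by the SET1 and MLL methyltransferase complexes and gathers at active and poised promoters, most strongly at CpG islands. Away from annotated promoters it is usually weak, where H3K4me1 prevails, and it can mark very active enhancers, promoters of transcripts that no annotation lists, and repeated elements. A far intergenic peak carries the name of the gene with the nearest start site, and that name says nothing about which gene, if any, the region regulates.

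The far intergenic peaks were scattered over 20 chromosomes and were mostly solitary in name. They were assigned to 263 genes, of which 225 had 1 such peak, 29 had 2 and 9 had 3 or more. Each peak was 400 bp wide. The absolute distance to the start site had a median of 68.7 kb with an interquartile range of 57.0 to 96.9 kb, and 151 peaks lay upstream and 166 downstream of the gene. Between 50 and 60 kb there were 107 peaks, between 60 and 100 kb 138, between 100 and 200 kb 67, and beyond 200 kb 5. The genes were seldom well-known ones. Provisional names (Gm, LOC or Rik) made up 59.3% of the assignments, against 50.4% at the 5083 intergenic peaks within 50 kb of a start site and 15.6% at the 17073 peaks within 1 kb of one. By RefSeq biotype, matched on the symbol for 283 of the 317 peaks, 33.4% of all far intergenic peaks were nearest a protein-coding gene, 33.1% a lncRNA gene and 16.4% a pseudogene.

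The chromosomes held very unequal shares. On chromosome 13, 36 of 1506 listed peaks (2.39%) were far intergenic, and these made up 14.3% of its intergenic peaks. Chromosome 18 followed with 18 of 1026 (1.75%), whereas chromosome 9 held 1 of 1864 (0.0536%). These shares are descriptions and were not tested.

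**Figure D1:**
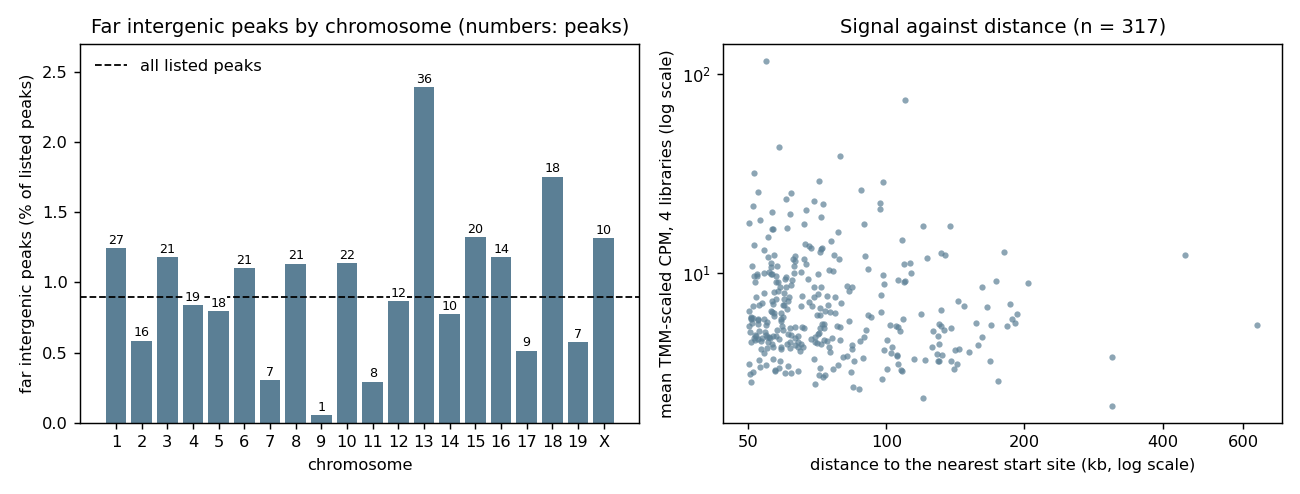
Left, far intergenic peaks as a percentage of the listed peaks of each chromosome, with the number of peaks above each bar and a dashed line at 0.893%, the share over all listed peaks; chromosome 13 stands highest at 2.39% and chromosome 9 lowest at 0.0536%. Right, mean TMM-scaled CPM over the 4 libraries against the absolute distance to the nearest start site, both on log scales, 1 point per peak; most points lie below 10 CPM at all distances, and the highest, at 115 CPM, is the Gm48310 peak.

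The signal at these peaks was low. Values below are reads, or reads per 1000000 reads in listed peaks after TMM scaling (CPM), in libraries of 3244495 to 3463731 reads. The far intergenic peaks had a median of 5.88 CPM (interquartile range 4.44 to 9.56), which corresponds to a median of 20 reads per library, against 6.79 CPM at the intergenic peaks nearer to genes, 41.2 CPM within 1 kb of a start site and 13.4 CPM over all listed peaks. A mean of 10 CPM was reached by 69 of the 317 (21.8%) and a mean of 20 CPM by 18. Every far intergenic peak had at least 1 read in every library. The median was 5.96 CPM at 50 to 60 kb, 6.39 CPM at 60 to 100 kb, 5.40 CPM at 100 to 200 kb and 5.47 CPM beyond 200 kb, so that it varied little with distance.

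As a whole, the far intergenic peaks took nearly the same share of the reads in both genotypes. They held 0.261% and 0.269% of the reads in the KL libraries and 0.269% and 0.270% in the KLG4m/m libraries. The groups differed by 0.00516 percentage points, and both KLG4m/m values were above both KL values (exact permutation test, two-sided, p = 0.333, which is the smallest p that 2 against 2 libraries can give). The difference was 0.00113 points without KL replicate 1 and 0.00919 points without KL replicate 2, and for the 72 peaks beyond 100 kb it was -0.00405 points. The nearer intergenic peaks held 5.92% and 5.94% in KL and 6.18% and 6.09% in KLG4m/m cells, and the peaks within 1 kb of a start site held 77.6% and 77.7% in KL and 76.9% and 76.9% in KLG4m/m cells. In sorted bulk cells, fewer cells carrying a mark and less of the mark per cell cannot be told apart.

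Single far intergenic peaks did differ between the genotypes. By edgeR's quasi-likelihood test with adjustment over all 35486 peaks, 7 of the 317 (2.21%) were higher in KLG4m/m cells and 13 (4.10%) were lower at an adjusted p under 0.05, against 3.10% of all listed peaks that were higher and 5.52% that were lower. In either direction, 20 (6.31%) passed, against 8.62% of all listed peaks and 4.84% of the nearer intergenic peaks. The shares were near those of the table as a whole. Both KLG4m/m libraries lay above both KL libraries at 83 far intergenic peaks (26.2%, against 27.5% of all) and below both at 85 (26.8%, against 26.6%). The median log2 fold change was 0.06 (interquartile range -0.33 to 0.39) and 168 of 317 (53.0%) were above 0, against a median of 0.01 and 51.0% above 0 over all listed peaks. The median was -0.0166 without KL replicate 1, 0.0235 without KLG4m/m replicate 3, 0.00586 without KLG4m/m replicate 4 and -0.0184 for the 72 peaks beyond 100 kb, so its sign was not stable. The share that passed grew with signal, from 4 of 116 peaks under 5 CPM (3.45%) through 8 of 132 at 5 to 10 CPM (6.06%) and 4 of 51 at 10 to 20 CPM (7.84%) to 4 of 18 at 20 CPM or more (22.2%). Over all listed peaks in the same bands it was 5.12%, 5.76%, 10.4% and 11.1%.

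These counts fell with any library left out, which left 1 library in a group. Calls over all listed peaks fell too, so the fall is not particular to the far intergenic peaks. Without KL replicate 1, 3 far intergenic peaks were higher and 8 lower, and without KL replicate 2, 4 were higher and 5 lower. Without KLG4m/m replicate 3 or KLG4m/m replicate 4, edgeR called 0 peaks in either direction over the whole table, and at an unadjusted p under 0.05 it gave 16 far intergenic peaks higher and 24 lower without replicate 3 and 16 higher and 20 lower without replicate 4. With all libraries, that unadjusted count was 33 higher (10.4%) and 33 lower (10.4%), against 11.2% and 13.5% of all listed peaks. DESeq2 gave no adjusted p to 204 of the 317, and of the remaining far intergenic peaks it called 1 higher and 2 lower. Over the whole table it called 0.139% higher and 1.03% lower of the 23790 peaks to which it gave an adjusted p. The 2 counts are therefore not shares of 317.

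**Figure D2:**
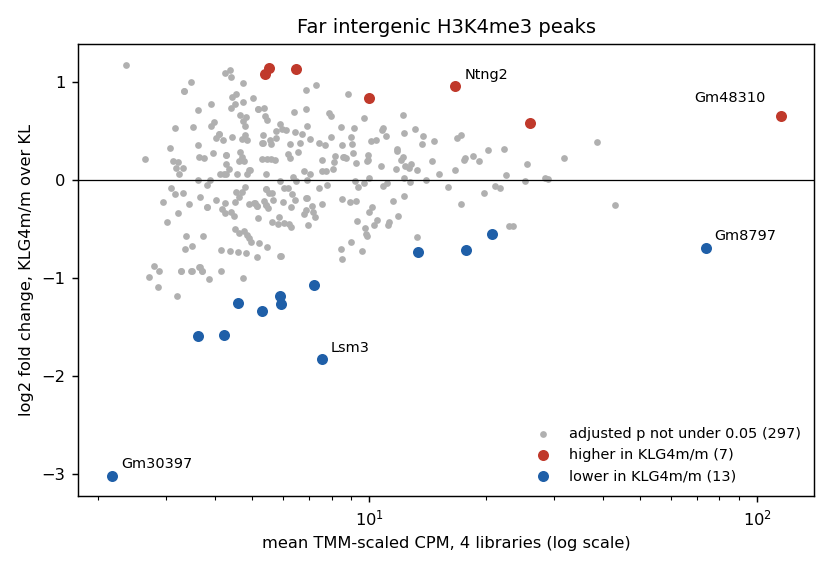
Log2 fold change (KLG4m/m over KL) against mean TMM-scaled CPM of the 4 libraries on a log scale, 1 point per far intergenic peak. Red points are the 7 peaks higher and blue points the 13 peaks lower at an adjusted p under 0.05 in edgeR; the Gm48310 and Gm8797 peaks, at 115 and 73.7 CPM, stand apart from the rest in signal and lie on opposite sides of 0.

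The most intense far intergenic peaks moved in opposite directions. The strongest was chr12:3159800-3160200, 54.6 kb upstream of the pseudogene Gm48310 and the first listed peak on its chromosome. In all, 6 far intergenic peaks lay within 1 Mb of the first listed peak of their chromosome. Whether the Gm48310 peak lies in repeated sequence was not examined. The KL libraries gave 322 and 303 reads at this peak, and the KLG4m/m libraries gave 535 and 407. Both KLG4m/m libraries were above both KL libraries, although they differed from each other by more than the KL libraries did. The means were 90.0 ± 3.79 CPM in KL and 141 ± 20.6 CPM in KLG4m/m cells (SD, n = 2 each), which is 1.57-fold higher (log2 fold change 0.65 ± 0.09 SE, edgeR adjusted p = 7.4e-05). The second was chr3:5925469-5925869, 110 kb downstream of the pseudogene Gm8797. It had 322 and 311 reads in KL and 211 and 166 in KLG4m/m cells, with no overlap. The means were 91.1 ± 2.16 and 56.3 ± 6.93 CPM, which is 1.61-fold lower (log2 fold change -0.69 ± 0.10 SE, edgeR adjusted p = 0.000102). Neither had another listed peak within 100 kb.

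The other 8 of the 10 strongest were led by a peak 58.4 kb from Morn1, with read counts of 161 and 164 in KL against 139 and 123 in KLG4m/m cells, whose log2 fold change of -0.25 did not pass the test (edgeR adjusted p = 0.208). A peak 88.2 kb downstream of the lncRNA gene Gm36603 was the one other of the 10 that passed. It had 71 and 74 reads in KL and 102 and 106 in KLG4m/m cells, and it rose 1.49-fold (log2 fold change 0.58 ± 0.16 SE, edgeR adjusted p = 0.0222). The replicates lay close together in each group. Peaks near Rps18-ps1, Vmn2r83 (a vomeronasal receptor gene), Gm18515, Gm30790, Runx3 (a Runt-family transcription factor) and Ubl3 (a ubiquitin-like protein) had log2 fold changes between -0.01 and 0.39 and did not pass.

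**Figure D3:**
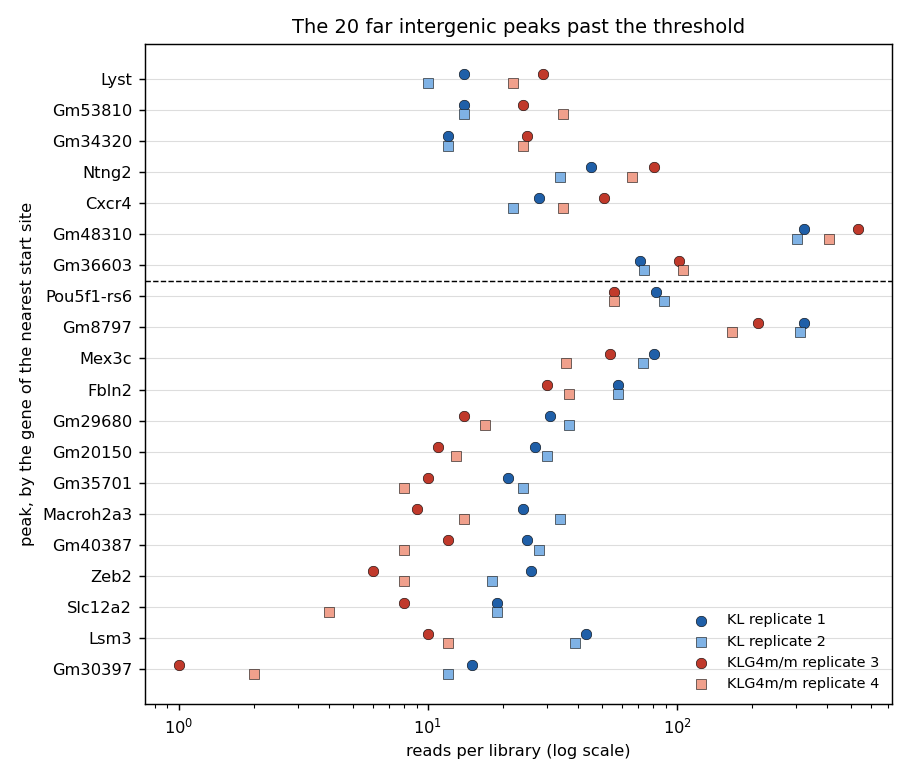
Reads in each of the 4 libraries (log scale) at the 20 far intergenic peaks with an adjusted p under 0.05, named by the gene of the nearest start site and ordered by log2 fold change; blue symbols are KL and red symbols KLG4m/m libraries. Above the dashed line are the 7 peaks higher in KLG4m/m cells and below it the 13 lower ones, and at none of the 20 do the groups overlap, although the peak of lowest signal, Gm30397, had 1 and 2 reads in the KLG4m/m libraries.

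Among the peaks that fell, those near protein-coding genes included Lsm3, Zeb2, Slc12a2, Fbln2 and Mex3c. The peak 69.7 kb downstream of Lsm3, a subunit of the LSm ring that binds U6 snRNA, at chr6:91562699-91563099, had 43 and 39 reads in KL and 10 and 12 in KLG4m/m cells. It was 3.55-fold lower (11.8 ± 0.804 against 3.31 ± 0.577 CPM, SD, n = 2 each; log2 fold change -1.83 ± 0.31 SE, edgeR adjusted p = 0.000428). The KLG4m/m reads were all far below the KL reads. A second peak, 13.1 kb away at chr6:91575821-91576221 and assigned to the lncRNA gene Gm40387, had 25 and 28 reads in KL and 12 and 8 in KLG4m/m cells and fell by 1.34 on the log2 scale (SE 0.36, edgeR adjusted p = 0.0185). On the same chromosome, the peak 72.5 kb downstream of Fbln2, which encodes the extracellular matrix protein fibulin 2, at chr6:91262292-91262692, had 58 and 58 reads in KL and 30 and 37 in KLG4m/m cells (1.66-fold lower, edgeR adjusted p = 0.0359). So 3 of the 13 peaks that fell lay in this stretch of chromosome 6. The start-site peaks of Lsm3 (104 and 90.4 CPM) and Fbln2 (10.5 and 7.81 CPM in KL and KLG4m/m cells) did not pass (edgeR adjusted p = 0.132 and 0.331).

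The peak 54.8 kb upstream of Zeb2, a zinc-finger repressor of epithelial genes, had 26 and 18 reads in KL and 6 and 8 in KLG4m/m cells (2.99-fold lower, log2 fold change -1.58 ± 0.42 SE, edgeR adjusted p = 0.019). The peak 85.1 kb downstream of Slc12a2, which encodes a sodium-potassium-chloride cotransporter, had 19 and 19 reads in KL and 8 and 4 in KLG4m/m cells (log2 fold change -1.59 ± 0.45 SE, edgeR adjusted p = 0.0278). In both, every KLG4m/m library was under 10 reads. The peak 50.1 kb downstream of Mex3c, an RNA-binding ubiquitin ligase, was stronger, with read counts of 81 and 73 in KL against 54 and 36 in KLG4m/m cells (1.64-fold lower, edgeR adjusted p = 0.023). The start-site peaks of Zeb2 (19.9 and 19.1 CPM), Slc12a2 (30.5 and 33.1 CPM) and Mex3c (71.1 and 81.9 CPM in KL and KLG4m/m cells) did not pass (edgeR adjusted p = 0.901, 0.661 and 0.190).

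The remaining peaks that fell were nearest genes without a known function or pseudogenes. The peaks of Macroh2a3, listed by RefSeq as a pseudogene, Gm35701, Gm20150 and Gm29680 had 21 to 37 reads per KL library and 8 to 17 per KLG4m/m library, with log2 fold changes of -1.27, -1.25, -1.18 and -1.07 (edgeR adjusted p from 0.0231 to 0.0389). The peak of Pou5f1-rs6, a pseudogene related to the pluripotency factor Pou5f1, was outside the naming rule and is named because it completes the 13; it had 82 and 89 reads in KL and 56 and 56 in KLG4m/m cells (1.47-fold lower, edgeR adjusted p = 0.0485). The peak 310 kb downstream of Gm30397 at chr8:44909313-44909713 had the fewest reads of the 20, with 15 and 12 reads in KL against 1 and 2 in KLG4m/m cells. Its reads gave a ratio of KL over KLG4m/m of 8.70 with an exact 95% interval of 2.68 to 44.8 that covers counting error only (edgeR adjusted p = 0.0066).

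The peaks that rose were nearest Lyst, Cxcr4, Ntng2 and 4 genes with provisional names. The peak 56.3 kb downstream of Ntng2, which encodes the membrane-anchored netrin G2, at chr2:29081424-29081824, had 45 and 34 reads in KL and 81 and 66 in KLG4m/m cells. It was 1.93-fold higher (11.4 ± 2.23 against 22.0 ± 2.16 CPM, SD, n = 2 each; log2 fold change 0.95 ± 0.20 SE, edgeR adjusted p = 0.00396). The groups were well separated, and Ntng2 had no listed peak at its start site. The peaks of Gm53810 (14 and 14 reads in KL, 24 and 35 in KLG4m/m cells) and Gm34320 (12 and 12, and 25 and 24) had log2 fold changes of 1.13 and 1.08 (edgeR adjusted p = 0.0318 and 0.0474).

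The far intergenic peaks of Lyst and Cxcr4 lay in runs, whose peaks start within 10 kb of each other. There were 4 runs of 3 or more peaks, with 17 peaks in all, 22 runs of 2 and 256 single peaks. The run at Lyst, the lysosomal trafficking regulator whose loss gives the beige coat and giant granules of leukocytes, had 7 peaks over 22.1 kb at chr13:13691496-13713550, from 73.0 to 51.3 kb upstream of the start site. The peaks summed to 213 and 192 reads in KL and 275 and 254 in KLG4m/m cells. All 7 had a log2 fold change above 0, from 0.21 to 1.14, and 1 of the 7 passed on its own, that at chr13:13711910-13712310, with read counts of 14 and 10 in KL against 29 and 22 in KLG4m/m cells (edgeR adjusted p = 0.039). Summed and tested among 35451 features, the run rose 1.36-fold (58.5 ± 4.31 against 79.0 ± 0.939 CPM, SD, n = 2 each; log2 fold change 0.44 ± 0.10 SE, edgeR adjusted p = 0.00676). The start-site peak of Lyst had 71.7 CPM in KL and 73.2 CPM in KLG4m/m cells (log2 fold change 0.03, edgeR adjusted p = 0.879).

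Cxcr4 encodes the receptor of the chemokine CXCL12 and is carried by most leukocytes and by many tumor cells. The run upstream of it had 4 peaks over 19.8 kb at chr1:128633083-128652849, from 113 to 132 kb upstream of the start site. The peaks summed to 111 and 89 reads in KL and 153 and 136 in KLG4m/m cells, so that both KLG4m/m libraries were above both KL libraries. The run rose (28.9 ± 4.50 against 43.1 ± 1.68 CPM, SD, n = 2 each; log2 fold change 0.59 ± 0.14 SE, edgeR adjusted p = 0.00986), and of its peaks the nearest to Cxcr4, with read counts of 28 and 22 in KL against 51 and 35 in KLG4m/m cells, passed on its own (log2 fold change 0.84 ± 0.26 SE, edgeR adjusted p = 0.0436). Farther upstream, 5 more far intergenic peaks were assigned to the small gene Gm23056. All 9 peaks between Cxcr4 and Gm23056 were above 0, with a median log2 fold change of 0.40 and a range of 0.24 to 0.88, against 51.0% above 0 over all listed peaks. Neighbouring peaks read in the same 4 libraries are not independent, so neither this count nor that at Lyst was tested. Of the other 10 listed peaks near Cxcr4, 7 were above 0 and 1 passed. That peak, intergenic and assigned to Gm41950, lay 30.7 kb downstream of the start site of Cxcr4. It had the largest rise of the locus (log2 fold change 1.18, edgeR adjusted p = 0.046), so rises were not limited to the far intergenic peaks. The start-site peak of Cxcr4 had 73.7 CPM in KL and 86.9 CPM in KLG4m/m cells (log2 fold change 0.24, edgeR adjusted p = 0.12). Both runs lost the call when KL replicate 2, KLG4m/m replicate 3 or KLG4m/m replicate 4 was left out (edgeR adjusted p from 0.0946 to 0.338 for Lyst and from 0.150 to 0.338 for Cxcr4) and in DESeq2 (adjusted p = 0.238 and 0.269), with the log2 fold change then between 0.37 and 0.45 for Lyst and between 0.44 and 0.63 for Cxcr4.

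**Figure D4:**
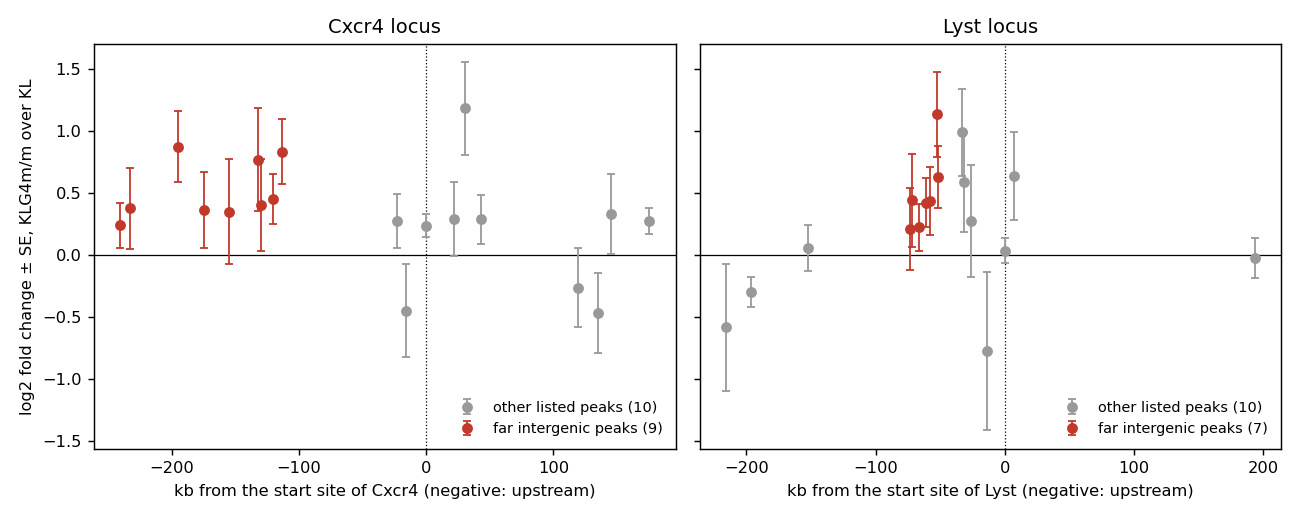
Log2 fold change (KLG4m/m over KL) with its SE against the distance in kb from the start site of Cxcr4 (left) and Lyst (right), negative values being upstream. Red points are far intergenic peaks (9 and 7) and grey points the other listed peaks of the locus (10 in each); all red points lie above 0, and the points at the start sites lie at 0.24 and 0.03.

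The other runs of 3 did not pass. That of Gm53271 on chromosome 10 had 62 and 60 reads in KL and 69 and 69 in KLG4m/m cells (log2 fold change 0.23, edgeR adjusted p = 0.446). That of Gadd45g, a stress-induced growth arrest gene, and Gm26651 on chromosome 13 had 49 and 66 reads in KL and 55 and 33 in KLG4m/m cells (log2 fold change -0.33, edgeR adjusted p = 0.387), and the groups overlapped.

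The far intergenic peaks were also set beside the start-site peaks of the genes they were named for. A listed peak within 1 kb of the start site of the assigned gene existed for 106 of the 317. Of the 20 far intergenic peaks that passed, 7 had one, and 0 of these start-site peaks passed in edgeR or in DESeq2, while 3 had an unadjusted p under 0.05 in edgeR. Of all listed peaks within 1 kb of a start site, 11.3% passed in edgeR. Over the 106, the log2 fold changes of the far and the start-site peaks had a Spearman correlation of 0.06, which was not tested. At 5 of the 106 (4.72%) the start-site peak passed, and 0 of the far intergenic peaks there did so in edgeR, also at an unadjusted p under 0.05, or in DESeq2. Because 6.31% of all far intergenic peaks passed in edgeR, a pass among so few would seldom be seen, and nothing is concluded from this 0. The genes of those 5, named after their values were seen, were Runx3, Gclc, Cds1, Rasa1 and Gpr65. At Runx3 the start-site peak rose from 37.9 ± 3.83 to 67.9 ± 3.35 CPM (SD, n = 2 each; edgeR adjusted p = 5.3e-05), while the peak 52.5 kb downstream had 79 and 89 reads in KL and 104 and 77 in KLG4m/m cells (log2 fold change 0.16, edgeR adjusted p = 0.579). At Gclc, the catalytic subunit of the enzyme that starts glutathione synthesis, the start-site peak fell from 59.0 ± 8.19 to 34.3 ± 6.88 CPM (edgeR adjusted p = 0.000728), while the peak 50.1 kb upstream had 22 and 23 reads in KL and 21 and 22 in KLG4m/m cells (log2 fold change -0.01, edgeR adjusted p = 0.992). The start-site peaks of Cds1, which makes CDP-diacylglycerol, and Rasa1, a GTPase-activating protein, also fell (log2 fold change -0.59 and -0.45), and that of the proton-sensing receptor gene Gpr65 rose (0.57).

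Few far intergenic peaks were named for genes of the pathways examined in these tumors. The peaks carried 263 gene names in all, so short lists can hold few of them, and the counts were not tested. Among 25 genes of ferroptosis control, Gclc alone had one. Among 29 transcription factor genes of lung and foregut development there were 3 peaks at 2 genes, and none passed. The peak 168 kb downstream of Gata6 had 3 and 16 reads in KL and 15 and 15 in KLG4m/m cells (log2 fold change 0.71, edgeR adjusted p = 0.393), and a second, 186 kb downstream, had 27 and 29 in KL and 16 and 23 in KLG4m/m cells (-0.46, adjusted p = 0.362). The replicates of the first differed so widely that the groups overlapped. The peak 157 kb upstream of Irx1 had 26 and 19 reads in KL and 21 and 11 in KLG4m/m cells (-0.43, edgeR adjusted p = 0.470). Among 53 genes of cell adhesion and axon guidance, Adgrl2, which encodes the adhesion receptor latrophilin 2, had 2 peaks with log2 fold changes of -0.17 and -0.74 (edgeR adjusted p = 0.845 and 0.218). None was named for any of 26 genes of triacylglycerol synthesis, 16 AP-1 genes, 37 chemokine and cytokine genes or the cell type markers below. The chemokine and cytokine list does not hold the receptor gene Cxcr4.

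The peaks at the far end of the range were weak. The farthest, 643 kb upstream of Gm18674 at chr7:76782587-76782987, had 19 and 11 reads in KL and 20 and 24 in KLG4m/m cells (log2 fold change 0.61, edgeR adjusted p = 0.291). That 449 kb downstream of Gm49186 had 38 and 44 in KL and 49 and 38 in KLG4m/m cells. Those of LOC118568718 (311 kb) and Gm40658 (203 kb) did not pass either, and of the 5 farthest, the Gm30397 peak alone did. At the limit of 50 kb, the peaks just inside were those of Gclc (50.096 kb), Rpl30-ps8 (50.098 kb) and Mex3c (50.106 kb), with log2 fold changes of -0.01, -0.25 and -0.72. Those just outside were of AA414768 (49.959 kb), Gm31904 (49.942 kb) and Rasgef1b (49.871 kb), with log2 fold changes of -0.57, 0.48 and -1.12.

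Far intergenic peaks were often alone. There was no other listed peak within 100 kb of 87 of the 317, the median number of others in that window was 2, and the nearest listed peak was a median of 39.7 kb away and within 10 kb for 77 peaks (24.3%). Of the 20 peaks that passed, 18 had no other peak that passed within 100 kb, and 7, of which 5 fell and 2 rose, had no other listed peak there at all. At 146 far intergenic peaks there were 3 or more other listed peaks within 100 kb. Their log2 fold change had a Spearman correlation of 0.36 with the median of those others. Such peaks share libraries and are not replicates, so this was not tested.

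The sorted cells were checked by the mark within 1 kb of the start sites of marker genes, as sums of CPM over a list. The summed signal of 8 of 10 epithelial genes was 239 to 248 CPM in KL and 204 to 224 CPM in KLG4m/m cells. Of their 8 peaks, 4 had a log2 fold change above 0, and the median was -0.055. Only 1 passed, that of Epcam, the marker of the sort, with 41.9 CPM in KL and 22.9 CPM in KLG4m/m cells. For 7 of 10 alveolar type 2 genes the summed signal was 286 to 309 CPM in KL and 228 to 230 CPM in KLG4m/m cells, and Sftpc, Sftpd and Slc34a2 had no listed peak there. The 7 genes had 8 peaks, of which 4 passed as lower and 0 as higher, with a median log2 fold change of -0.40. For 8 of 10 B cell genes the summed signal was 97.1 to 112 CPM in KL and 146 to 155 CPM in KLG4m/m cells, with none listed at Cd79a and Pax5. Their 12 peaks held 4 that passed as higher and 0 as lower, with a median log2 fold change of 0.61. For 8 of 13 macrophage genes the summed signal was 218 to 219 CPM in KL and 270 to 271 CPM in KLG4m/m cells, with none at C1qa, C1qb, C1qc, Marco and Mrc1. Their 10 peaks held 2 that passed as higher and 0 as lower, with a median log2 fold change of 0.43. The sum for 10 of 12 T cell genes was 236 to 263 CPM in KL and 269 to 273 CPM in KLG4m/m cells, for 10 of 10 endothelial genes 167 to 195 and 153 to 168 CPM, and for 6 of 11 fibroblast genes 92.1 to 94.8 and 95.4 to 99.1 CPM. Of 14 T cell peaks 12 were above 0, and the 1 that passed was lower. Among 12 endothelial peaks 0 passed, and among 7 fibroblast peaks 1 passed, as higher. Of all listed peaks within 1 kb of a start site, 2.89% passed as higher and 8.43% as lower. The B cell, macrophage, T cell and fibroblast sums were higher in both KLG4m/m libraries than in both KL libraries. The epithelial and alveolar type 2 sums were lower in both. Of single listed peaks, 27.5% lay above in both and 26.6% below in both. The part of such cells in the differences at the far intergenic peaks was not tested. The Gpx4 promoter peak had 68.8 CPM in KL and 90.7 CPM in KLG4m/m cells and passed as higher (log2 fold change 0.40, edgeR adjusted p = 0.00854). The Gpx4m/m allele carries a CAG promoter at this locus, and its part in the difference was not tested. The mark at a promoter does not show whether the gene was cut out.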

How the data were processed

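The authors deposited 1 H3K4me3 table for 4 libraries with whole counts of reads per peak and CPM scaled by the authors to the reads in listed peaks. According to the methods and the submitters' processing notes, reads were trimmed with Trim Galore 0.6.10, mapped with BWA 0.7.15, freed of mitochondrial, low mapping quality and duplicate reads (Picard 2.17.3), and peaks were called with MACS2 2.2.7.1 and annotated (HOMER 4.11.1). Removing reads of low mapping quality lowers the counts in repeated sequence. The kit is named CUT&Tag, although the protocol describes cleavage by MNase. Because values are relative to the reads in listed peaks, a uniform gain or loss of the mark cannot be seen. The authors' own comparison columns (log2 fold change, p-value and the like) were not used, and H3K27ac was not analysed here. Positions are as the table holds them; the methods name an Ensembl mouse release, but of 19828 genes matched by symbol 339 had the same start or end as in GRCm38.p6, so no sequence was read from that build, and gene biotypes were taken from its RefSeq table by symbol.

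Libraries were grouped by the sample labels. The 35486 peaks were tested with edgeR 4.0.16 (quasi-likelihood test, TMM scaling, common dispersion 0.00133, Benjamini-Hochberg adjustment) in R 4.3.3, with DESeq2 1.42.0 and limma 3.58.1 (log2(CPM + 1), also with 0.25 and 4) as alternatives, beside other size factors, filters, thresholds and distance limits and each library left out in turn. The self-test used simulated counts with a change given to 100 far intergenic peaks. At 1.5, 2 and 3-fold, edgeR recovered 4%, 24% and 74% of them, against 37%, 66% and 87% of other listed peaks. A far intergenic peak that did not pass may therefore still have changed, and shares that passed are not directly comparable with those of stronger peaks. Libraries held 3244495 to 3463731 reads in peaks; at the median of 20 reads per peak and library, counting error is a large part of a value. Sums over runs (neighbours starting within 10 kb) and their alternatives were chosen after seeing the data. Named peaks were: the 10 that rose most and the 10 that fell most among those that passed without overlap and reached 5 CPM in the mean of the higher group; the 10 strongest; the 5 farthest; the 3 on each side of 50 kb; peaks of listed genes; and runs of 3 or more. Some items, an allele that both groups carry and 1 gene list among them, are not reported here. Gm30397 is under 5 CPM and was named as one of the farthest. The peaks, lists and rule were chosen with earlier results of these data known. No permutation p below 0.333 is possible with 2 against 2 libraries.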

Additional observations from a re-analysis of the deposited data

How the results depend on the processing

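No paired analysis was possible because the labels number the KL libraries 1 and 2 and the KLG4m/m libraries 3 and 4, so the groups share no replicate number. Of the far intergenic peaks, 7 were higher and 13 lower with a median log2 fold change of 0.0562. DESeq2 gave 1 higher and 2 lower (33 and 244 over all peaks it tested, against 1099 and 1960 in edgeR). A filter at a mean of 10 CPM, which leaves 69 of the 317, gave 4 and 4 with a median of 0.10. Limma with a pseudocount of 0.25 gave 4 higher and with 4 a median of 0.0299. An adjusted p under 0.01 gave 2 and 3. A limit of 100 kb, which leaves 72 peaks, gave 2 and 4, a median of -0.0184 and a difference in read share of -0.00405 percentage points. Leaving out 1 library, with the lone library of its group assumed to vary like the other group, gave 0 to 4 higher, 0 to 8 lower, a median of -0.0166 to 0.0583, negative without KL replicate 1, and a read share difference of 0.00113 to 0.00919 points. RLE size factors, total reads, TMM on promoter peaks, an added 1.5-fold change and summed runs kept both counts within 1.5 times. The cause of the differences between tools was not tested. Of 225 alternative values for 25 named peaks, 141 kept direction and side of the threshold. A peak that had not passed could not change side without KLG4m/m replicate 3 or KLG4m/m replicate 4, where edgeR called no peak of the whole table. Without either KL library edgeR still called peaks, though fewer than with all libraries. A further 76 kept direction only, some of them because DESeq2 gave no adjusted p. The other 8, at peaks that did not pass, changed sign. These were Gm18515 with total reads (-0.0030) and, with 1 library left out, Vmn2r83 (-0.0446 to 0.451), Gm18515 (-0.237 to 0.298), Gm30790 (-0.110 to 0.145), Runx3 (-0.0239 to 0.321) and Ubl3 (-0.180 to 0.184). All 20 peaks that passed kept their sign without each library, which follows from the lack of overlap between the groups at all 20. Those of Lsm3, Gm8797 and Gm48310 passed in all 7 alternatives on all libraries. The median peak had 20 reads per library.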

Other observations

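Among the 22 runs of 2 far intergenic peaks, named here after their values were seen, 1 passed only as a sum and 1 held a peak that passed but did not pass as a sum. The pair assigned to Gm31603 on chromosome 8, neither of which passed alone, had 63 and 68 reads in KL and 92 and 93 in KLG4m/m cells, and the sum rose (log2 fold change 0.55 ± 0.17 SE, edgeR adjusted p = 0.0361). The pair of Mex3c, in which 1 peak passed alone, passed as a sum too, at 112 and 119 reads in KL and 84 and 65 in KLG4m/m cells (log2 fold change -0.58 ± 0.16 SE, edgeR adjusted p = 0.0215). The pair of Gm20150, in which 1 peak fell, had 58 and 63 reads in KL and 46 and 49 in KLG4m/m cells, and the sum did not pass (log2 fold change -0.29, edgeR adjusted p = 0.381). The pair of Gcnt1, which encodes a glycosyltransferase that branches O-glycans, had 44 and 44 reads in KL and 63 and 58 in KLG4m/m cells (log2 fold change 0.52, edgeR adjusted p = 0.104), and that of Edn1, which encodes the vasoconstrictor peptide endothelin 1, had 72 and 64 in KL and 66 and 70 in KLG4m/m cells (0.06, edgeR adjusted p = 0.883).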
